A study of Mus musculus with 21 samples.

Results

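Autophagy is the process by which a double membrane grows around cytoplasmic material, closes into an autophagosome and delivers it to the lysosome. The same machinery takes part in secretion: Paneth cells (PCs), the antimicrobial cells at the base of small intestinal crypts, need Atg16l1, Atg5 and Atg7 for the normal packaging and release of their granules. The 39 genes described here were taken from a list of autophagy genes and matched by Ensembl identifier to the deposited table, which holds 55414 mouse genes. The list was drawn up by gene function, and earlier results of these data were known when it was. All 39 were found, all were protein coding, and all 39 passed the filter on low counts that left 13070 genes for testing. Atg16l1 and the 5 cargo receptors (Sqstm1, Nbr1, Optn, Calcoco1 and Tax1bp1) are treated apart from the core machinery.

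Mouse small intestinal PCs were sorted by FACS, and their total RNA was turned into stranded mRNA libraries. The mice drank Milli-Q water or water with 200 mM ZnSO4 for 7 weeks in 3 microbiome contexts. Mice of the specific pathogen-free (SPF) context had an intact microbiota (3 libraries on Milli-Q, 3 on zinc), mice of the antibiotics context were SPF mice that also received broad-spectrum antibiotics in the final 3 weeks (4 and 4), and germ-free mice never carried one (3 and 4). The libraries of a group are described as biological replicates. The study's methods describe sorting of PCs from C57BL/6J mice, and the labels name no strain, sex, age or engineered allele.

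Library totals ran from 9888174 to 16896714 counts. The 8 PC markers made up 30.1 to 53.6% of counts in each library, and in every group the stromal and endothelial markers summed to at most 0.000251% of counts. Goblet markers, the largest other class, took from 0.978% (SPF, zinc) to 1.41% (antibiotics, Milli-Q) of counts by group mean. Several properties of the libraries moved with the groups. Defa genes took 43.8% of counts in germ-free mice on Milli-Q and 41.2% in those on zinc, against 27.6 to 35.1% in the other 4 group means, and the TMM factors, which scale the libraries to each other, were 0.522 to 0.834 in germ-free libraries and 0.996 to 1.49 elsewhere. The summed immune markers were 0.0359% in antibiotics mice on Milli-Q and at most 0.00873% in the other group means, enterocyte markers were 0.107% in SPF mice on zinc and at most 0.0495% elsewhere, and stem and cycling markers were 0.185 and 0.255% in the germ-free groups against 0.379 to 0.524% elsewhere. In the germ-free groups enteroendocrine markers were 0.00428 and 0.00497% and tuft markers 0.00794 and 0.00856%, against 0.00889 to 0.01903% and 0.0213 to 0.0334% elsewhere. Mitochondrial transcripts took 0.8402% of counts in germ-free mice on Milli-Q, 1.78% in those on zinc, 3.19% in antibiotics mice on zinc and 2.005 to 2.29% in the others. The library SPF zinc 1 held 6228 Xist counts, and every other library held 34 or fewer. In sorted bulk libraries, a change in the make-up of the sorted cells and a change in RNA per cell cannot be told apart.

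The autophagosome is built in steps, and the genes are ordered here by step. The ULK complex starts the process, the class III PI3-kinase complex marks the membrane with PI3P, and readers of PI3P with Atg2 lipid transfer proteins and Atg9a vesicles enlarge it. A pair of ubiquitin-like conjugation reactions, in which the Atg12-Atg5-Atg16l1 complex acts as the ligase, then attaches Atg8 proteins (LC3 and GABARAP) to the membrane, after Atg4 proteases have trimmed them. Cargo receptors bind both an Atg8 protein and the material to be enclosed.

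Within PCs the genes differed widely in level. In TPM (a level corrected for transcript length and scaled to a fixed sum per library, mean over the 21 libraries), Gabarap stood first with 82.8. It was followed by the receptors Sqstm1 (29.5), Nbr1 (27.9) and Tax1bp1 (23.99), then by Map1lc3b (16.7) and Becn1 (15.1). Atg16l1 ranked 25 of 39 with 3.25 TPM, next to Optn (3.22). The lowest levels were those of Ulk2 (1.102), Atg16l2 (0.969) and Atg4c (0.965). Of the 4 genes with most transcripts, 3 were thus cargo receptors.

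Scaling decides what the summed level looks like. As a share of raw counts the 39 genes together held 0.157% in SPF mice on Milli-Q, 0.139% in SPF mice on zinc, 0.156% and 0.136% in the antibiotics groups on Milli-Q and zinc, and 0.105% and 0.108% in the germ-free groups. In CPM (counts divided by library size after TMM scaling), used below for each gene across libraries, the same sums were 1253 ± 91.0 (SD, n = 3), 1283 ± 46.5 (n = 3), 1178 ± 43.7 (n = 4), 1147 ± 48.4 (n = 4), 1622 ± 43.1 (n = 3) and 1532 ± 114 (n = 4). The germ-free libraries are thus lowest by share of all counts and highest after TMM scaling, which sets the bulk of genes, rather than the Defa transcripts, as the reference.

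**Figure D1:**
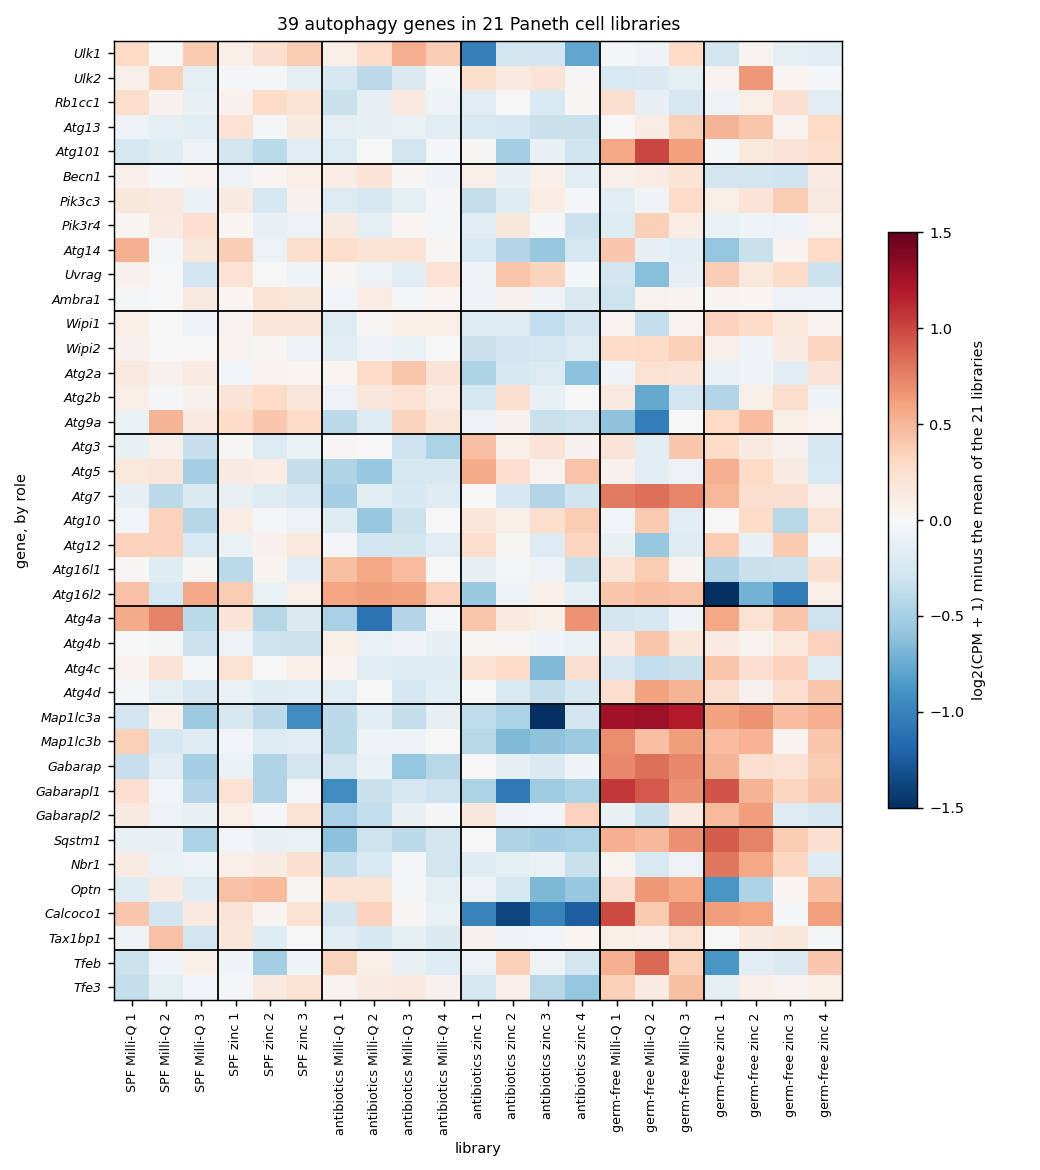
Heat map of the 39 autophagy genes (rows, grouped by role from the ULK complex at the top to the transcription factors at the bottom) in the 21 libraries (columns, grouped by context and water). Colour gives log2(CPM + 1) with TMM scaling minus the mean of the gene's 21 libraries, and saturates at 1.5 in either direction. Gabarap, Map1lc3a and Atg7 are red in the germ-free libraries under this scaling, and Calcoco1 and Ulk1 are blue in the antibiotics libraries on zinc.

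Each comparison was a contrast in an edgeR quasi-likelihood fit of all 21 libraries, and a gene was called when its Benjamini-Hochberg adjusted p over the 13070 genes was under 0.05. In germ-free against SPF mice on Milli-Q, 13 of the 39 genes were called (33.3%), against 24.2% of all genes tested. Of these, 12 were higher (30.8%, against 12.7% of all genes) and 1 was lower (2.6%, against 11.6%). On zinc water the same contrast called 6 genes, all higher (15.4%, against 5.85% of all genes called, 3.47% higher and 2.38% lower). The median log2 fold change of the 39 genes was 0.09 on Milli-Q and 0.12 on zinc, and that of all genes was -0.03 and 0.002. All 6 genes called on zinc, Map1lc3a, Sqstm1, Gabarap, Map1lc3b, Atg7 and Atg4b, were also among the 12, an overlap not compared with all genes. These calls hold for TMM scaling: with libraries scaled by their totals alone, the median of all genes was -0.99 on Milli-Q, 7 of the 12 higher genes had a negative fold change, and 26 of the 39 genes were called lower and none higher, against 70.9% of all genes lower and 0.566% higher. On zinc these figures were -0.61, 3 of 6, 21 lower and none higher, against 48% and 0.245% of all genes. On Milli-Q the fold changes under that scaling were 0.64 for Map1lc3a (adjusted p = 0.0607), 0.12 for Gabarap (0.536) and 0.09 for Atg7 (0.593), none of them called. The Milli-Q count was 7 without SPF Milli-Q replicate 2, where 2370 of all genes were called, against 3169 in the full fit. The zinc count was 0 and 1 without replicates 2 and 3 of SPF zinc, and 2 and 3 without replicates 1 and 2 of germ-free zinc. Of all genes, 51, 168, 370 and 402 were called in these fits, against 764 in the full fit.

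Zinc called no autophagy gene in SPF mice. None of the 39 reached an unadjusted p under 0.05 (5.09% of all genes did). DESeq2 also called 0 (0.307% of all genes), and the edgeR fit called 0.138% of all genes. After antibiotics, zinc changed 8 genes (20.5%, against 21.7% of all genes). There, 2 genes rose (10.2% of all genes did) and 6 fell (15.4%, against 11.5%), with a median of -0.09 over the 39 genes and 0.01 over all. In germ-free mice zinc changed 7 genes (17.9%, against 11.4%), of which 2 rose (5.1%, against 5.89%) and 5 fell (12.8%, against 5.47%). Averaged over the contexts, 9 were called (23.1%, against 21.9%), 1 higher (2.6%, against 10.7%) and 8 lower (20.5%, against 11.2%). None of the 39 genes was called for zinc in both antibiotics and germ-free mice. The share of all genes called in both was not computed, so this overlap has no background to be read against.

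The germ-free zinc count rests on few libraries and on the scaling. By totals it was 1 (5.62% of all genes were called), and with the germ-free groups fitted alone 0 (0.0262% of all genes). Leaving out germ-free zinc replicate 4 gave 13 calls (3435 of all genes, against 1485 in the full fit). There were 0 without replicate 2 of germ-free Milli-Q (5 of all genes) or replicate 3 of germ-free zinc (196). Without replicates 1 and 2 of germ-free zinc there were 1 (486) and 2 (597). Without replicates 1 and 3 of germ-free Milli-Q there were 4 (1806) and 3 (563). The averaged count was 18 without germ-free zinc replicate 4 (4159 of all genes, against 2860 in the full fit). The count after antibiotics was 4 without antibiotics Milli-Q replicate 2 (1317 of all genes) and 5 without antibiotics zinc replicate 4 (1736), against 2838 of all genes in the full fit.

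Antibiotics against SPF on Milli-Q called no autophagy gene either (0.199% of all genes were called). At an unadjusted p under 0.05 there were 3 (8.13% of all genes were), DESeq2 called 0 (0.383% of all genes), and the count was 1 without SPF Milli-Q replicate 3 (83 of all genes). On zinc water, 5 of the 39 genes were lower after antibiotics and none higher (12.8%, against 8.97% of all genes, 4.21% lower and 4.76% higher). Calcoco1 and Ulk1 are lower both there and for zinc after antibiotics, and the contrasts share the antibiotics zinc libraries. The count on zinc was 2 without antibiotics zinc replicate 1 (512 of all genes) or 4 (617). It was also 2 without SPF zinc replicate 1 (573), 2 (272) or 3 (376), and 3 without antibiotics zinc replicate 3 (922). The full fit called 1172 of all genes.

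Direct tests of whether the zinc effect differed between contexts called no autophagy gene. For antibiotics minus SPF edgeR called 0% of all genes, 10 autophagy genes were under an unadjusted p of 0.05 (18.5% of all genes were), and DESeq2 called 3 (1.99% of all genes). For germ-free minus SPF edgeR called 0% of all genes, 9 autophagy genes were under that p (13.3% of all genes), and DESeq2 called 0 (0.261%). Without germ-free zinc replicate 4, 2 were called (767 of all genes). For germ-free minus antibiotics edgeR called 0.207% of all genes, 11 autophagy genes were under that p (16.4%), and DESeq2 called 3 (2.48%). Without germ-free Milli-Q replicate 1, 1 was called (362 of all genes). A zinc effect called in one context and not in another is therefore not shown to differ.

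**Figure D2:**
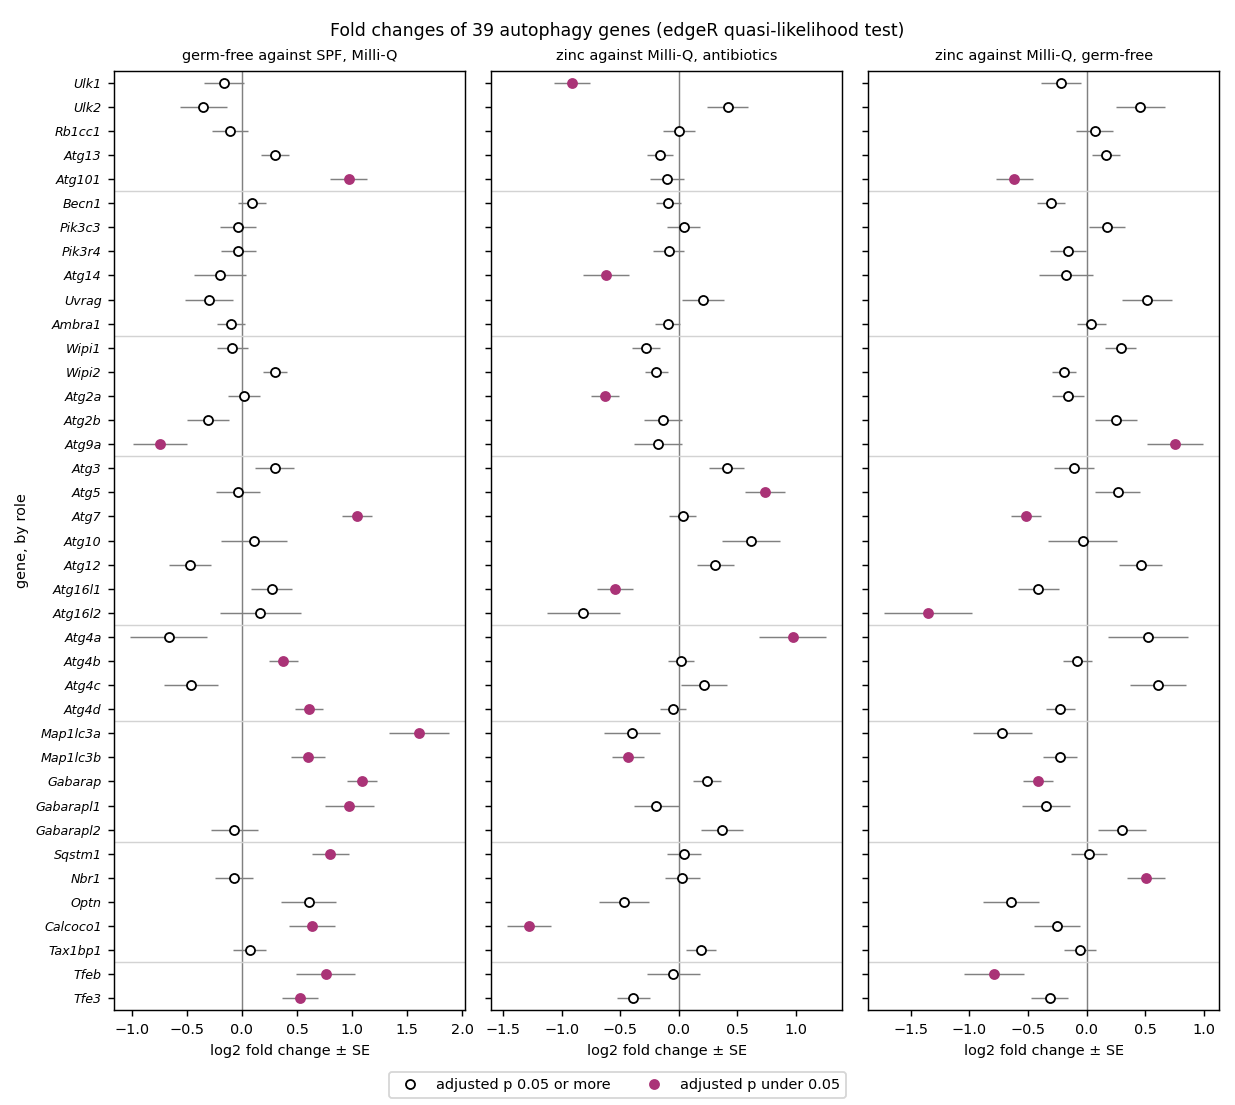
Log2 fold change (x axis, bars give the SE of the fit) of each of the 39 autophagy genes (y axis, ordered by role, grey lines part the roles) in germ-free against SPF mice on Milli-Q, in zinc against Milli-Q after antibiotics, and in zinc against Milli-Q in germ-free mice. Filled points mark an adjusted p under 0.05: 13, 8 and 7 genes. With TMM scaling 4 of 5 Atg8 family genes lie to the right of 0 and are called in the left panel. Scaled by library totals none of these 4 is called, Map1lc3b turns to -0.34 there, and Gabarapl1 lies at 0.03.

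Atg16l1 (ENSMUSG00000026289, GRCm39 chr1:87683592-87720150, + strand) encodes the subunit that directs the conjugation of Atg8 proteins to the growing membrane. It gave 28.6, 31.6, 28.9 and 20.8 CPM in the 4 antibiotics mice on Milli-Q and 18.9, 20.3, 19.5 and 16.3 in the 4 on zinc. Every library on zinc lay below every library on Milli-Q, and the lowest Milli-Q library (replicate 4) was close to the highest zinc library. The gene fell with zinc after antibiotics (log2 fold change -0.55, SE 0.15, adjusted p = 0.0166). Leaving out antibiotics Milli-Q replicate 2 ended the call (adjusted p = 0.0666), as did leaving out antibiotics zinc replicate 4 (adjusted p = 0.0556). After correction for GC content and transcript length the value was -0.55 (adjusted p = 0.0235).

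In SPF mice Atg16l1 gave 20.99, 18.2 and 20.9 CPM on Milli-Q and 15.4, 21.4 and 18.3 on zinc. These overlap, and the zinc difference was -0.12 (SE 0.18, adjusted p = 0.997). In germ-free mice the values were 23.97, 27.2 and 21.3 on Milli-Q and 14.9, 16.2, 16.4 and 24.7 on zinc. Of the zinc libraries, 3 lay below all Milli-Q libraries, and replicate 4 lay among them. That difference did not pass the test at -0.41 (SE 0.18, adjusted p = 0.123). It was called without SPF zinc 1 and germ-free zinc 4 together, and fits without 1 library gave adjusted p from 0.00971 to 0.402. The average over contexts passed the test, at -0.36 (SE 0.10, adjusted p = 0.0139), and kept its call without any 1 of the 21 libraries.

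By group mean, Atg16l1 was highest in antibiotics mice on Milli-Q (27.5 ± 4.65), then in germ-free mice on Milli-Q (24.2 ± 2.97), SPF mice on Milli-Q (20.03 ± 1.61), antibiotics mice on zinc (18.8 ± 1.76), SPF mice on zinc (18.4 ± 2.998) and germ-free mice on zinc (18.04 ± 4.46). The last 4 means differ by less than the SD of the SPF zinc group and of the germ-free zinc group. Against SPF on Milli-Q neither antibiotics (log2 fold change 0.46, SE 0.17, adjusted p = 0.433) nor the germ-free state (log2 fold change 0.27, SE 0.18, adjusted p = 0.294) passed the test. On zinc the differences from SPF were 0.03 (SE 0.17, adjusted p = 0.931) after antibiotics and -0.02 (SE 0.17, adjusted p = 0.964) in germ-free mice. The germ-free difference on Milli-Q has the opposite sign, -0.69 (adjusted p = 0.0175), when libraries are scaled by totals. With the GC and length correction this Milli-Q difference kept its positive sign and was called, so its call depends on the processing. Antibiotics mice on Milli-Q, the group highest in Atg16l1, also held the most immune marker counts (0.0359%, all 8 markers with counts), and the part of these cells in the Atg16l1 level was not tested.

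Sqstm1 (p62; GRCm39 chr11:50089572-50107684, - strand) is the receptor that binds ubiquitinated cargo and gathers it into bodies. It gave 109.8, 110.4 and 85.2 CPM in SPF mice and 173, 167 and 192 CPM in germ-free mice on Milli-Q, and 115, 110.3 and 111 and 225, 199.9, 155 and 140.3 on zinc. The lowest germ-free library lay above the highest SPF library on either water. With TMM scaling Sqstm1 was higher in germ-free mice on Milli-Q (log2 fold change 0.80, SE 0.17, adjusted p = 0.00168; -0.16 when scaled by totals) and on zinc (log2 fold change 0.68, SE 0.16, adjusted p = 0.0149; 0.03 by totals). The Milli-Q call held without any 1 of its 6 libraries, and the zinc call did not hold without SPF zinc replicate 2 (adjusted p = 0.105), SPF zinc replicate 3 (adjusted p = 0.0767) or germ-free zinc replicate 1 (adjusted p = 0.053).

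Antibiotics mice had 77.3, 96.1, 90.5 and 98.4 CPM of Sqstm1 on Milli-Q and 119, 86.6, 84.2 and 85.1 on zinc, so that 1 zinc library stood above the other 3. The zinc effect on Sqstm1 was 0.14 in SPF, 0.05 in antibiotics and 0.02 in germ-free mice on the log2 scale, each under its SE, and the first 2 turn negative when scaled by totals. Averaged over contexts it was 0.07 (SE 0.09, adjusted p = 0.61), and antibiotics against SPF gave -0.17 (SE 0.16, adjusted p = 0.808) on Milli-Q and -0.26 (SE 0.16, adjusted p = 0.3) on zinc, none of them called. Sqstm1 shares its locus with Mgat4b on the opposite strand, and without knowing whether strand was used in counting, reads of the overlap cannot be assigned to either gene.

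Calcoco1 (GRCm39 chr15:102614354-102630631, - strand), a receptor known for the turnover of endoplasmic reticulum and Golgi membranes, gave the largest zinc effect of the 39 genes after antibiotics. It gave 13.6, 21.4, 16.9 and 15.5 CPM on Milli-Q and 7.805, 5.76, 7.82 and 6.46 on zinc. All 4 libraries of the antibiotics zinc group lay below every other library of the series. Calcoco1 fell 2.42-fold with zinc after antibiotics (log2 fold change -1.28, SE 0.19, adjusted p = 0.000889) and was 2.69-fold lower in antibiotics than in SPF mice on zinc (log2 fold change -1.43, SE 0.20, adjusted p = 0.000381). Both calls held without any 1 of the libraries compared and under scaling by totals, and with the GC and length correction the zinc effect was -0.94 (adjusted p = 0.00436). Averaged over contexts Calcoco1 was called lower with zinc (log2 fold change -0.49, SE 0.11, adjusted p = 0.00567), a call kept without any 1 of the 21 libraries and ended by the GC and length correction (-0.26, adjusted p = 0.152).

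In SPF mice Calcoco1 gave 22.3, 13.5 and 18.5 CPM on Milli-Q and 19.2, 17.1 and 19.6 on zinc, which overlap. Germ-free mice gave 33.7, 22.1 and 28.1 CPM on Milli-Q and 26.1, 25.6, 16.3 and 26.04 on zinc, with replicate 3 of the zinc group apart from the other 3. The zinc difference was 0.05 (SE 0.21, adjusted p = 0.997) in SPF and -0.25 (SE 0.20, adjusted p = 0.414) in germ-free mice, antibiotics against SPF on Milli-Q gave -0.10 (SE 0.19, adjusted p = 0.913), and germ-free against SPF on zinc gave 0.33 (SE 0.20, adjusted p = 0.325). None of these was called. The zinc effect after antibiotics differed from that in SPF mice by -1.32 (SE 0.28, adjusted p = 0.107), and from that in germ-free mice by 1.02 (SE 0.27, adjusted p = 0.0789) in the direction germ-free minus antibiotics, so neither passed the test over all genes. The germ-free value on Milli-Q was called higher than in SPF (log2 fold change 0.63, SE 0.21, adjusted p = 0.0306), but the libraries overlap, the sign turns to -0.31 when scaled by totals, and the call was lost without any of germ-free Milli-Q replicates 1 (adjusted p = 0.131) and 3 (0.0721) or SPF Milli-Q replicates 2 (0.184) and 3 (0.068).

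Nbr1 (GRCm39 chr11:101442962-101472781, + strand), a ubiquitin-binding receptor related to Sqstm1, gave 144, 119 and 132 CPM in germ-free mice on Milli-Q and 242, 209.7, 173 and 122 on zinc. Replicate 4 of the zinc group lies within the Milli-Q range, and replicates 1 to 3 lie above it. Nbr1 was called higher with zinc (log2 fold change 0.51, SE 0.16, adjusted p = 0.0461), and the call was lost in 5 of 7 fits that each left out 1 library, with adjusted p up to 0.221, and with the germ-free groups fitted alone or the GC and length correction. The other groups ranged over 130.1 to 152 CPM (SPF, Milli-Q), 149 to 164 (SPF, zinc), 109 to 138 (antibiotics, Milli-Q) and 110.3 to 130.4 (antibiotics, zinc). Nbr1 had no other call in the full fit with TMM scaling. Scaled by totals it was called lower in germ-free than in SPF mice on Milli-Q and on zinc (-0.40 on zinc, adjusted p = 0.0345). Of all genes, 70.9 and 48% were then lower. In the full fit the zinc difference of Nbr1 was 0.17 (SE 0.17, adjusted p = 0.997) in SPF mice, 0.03 (SE 0.15, adjusted p = 0.911) after antibiotics and 0.23 (SE 0.09, adjusted p = 0.071) on average. Antibiotics against SPF gave -0.20 (SE 0.16, adjusted p = 0.768) on Milli-Q and -0.34 (SE 0.16, adjusted p = 0.178) on zinc, and germ-free against SPF gave -0.07 (SE 0.17, adjusted p = 0.794) and 0.26 (SE 0.16, adjusted p = 0.33).

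Optn (GRCm39 chr2:5022703-5068945, - strand), a receptor for damaged mitochondria and bacteria, gave 17.9, 18.3 and 13.03 CPM in SPF and 12.2, 10.8, 7.75 and 8.36 in antibiotics mice on zinc. All SPF libraries were higher, and the difference was called (log2 fold change -0.74, SE 0.23, adjusted p = 0.0449), although leaving out any 1 of the 7 libraries lost the call, with adjusted p from 0.0501 to 0.185. On Milli-Q the values were 11.2, 14.4 and 11.2 in SPF, 15.1, 15.02, 12.6 and 11.6 in antibiotics and 15.4, 20.9 and 19.8 in germ-free mice. Optn gave 6.58, 9.07, 13.2 and 18.1 CPM in germ-free mice on zinc, the widest spread of any group for this gene, and its zinc difference there, -0.65 (SE 0.24, adjusted p = 0.0782), did not pass the test. Nor did that in SPF mice (log2 fold change 0.42, SE 0.25, adjusted p = 0.997), after antibiotics (log2 fold change -0.47, SE 0.21, adjusted p = 0.116) or on average (log2 fold change -0.23, SE 0.14, adjusted p = 0.219). Optn was also not called in antibiotics against SPF on Milli-Q (log2 fold change 0.14, SE 0.23, adjusted p = 0.898) or in germ-free against SPF on Milli-Q (log2 fold change 0.61, SE 0.25, adjusted p = 0.0799) and zinc (log2 fold change -0.46, SE 0.24, adjusted p = 0.247). The zinc difference in germ-free mice was called without the filter on low counts, and without SPF zinc 1 and germ-free zinc 4 together. Fits without 1 library gave this difference adjusted p from 0.00428 to 0.276.

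Tax1bp1 (GRCm39 chr6:52690676-52745153, + strand), which binds ubiquitinated aggregates and takes part in restraining inflammatory signalling, was called in none of the 11 contrasts of the full fit. Its group means ran from 97.1 ± 3.04 CPM in antibiotics mice on Milli-Q to 122 ± 7.66 in germ-free mice on Milli-Q, and log2 fold changes in the 8 comparisons outside the tests of difference ran from -0.26 to 0.19. The widest group was SPF on Milli-Q with 106, 151 and 90.96. Scaled by totals, Tax1bp1 was called lower in germ-free than in SPF mice on Milli-Q (-0.91, adjusted p = 0.000463) and on zinc (-0.53, adjusted p = 0.0248). Of all genes, 70.9 and 48% were then lower. With the GC and length correction Tax1bp1 was called higher in germ-free mice on Milli-Q. Over the 5 receptors, germ-free against SPF on Milli-Q called 2 higher with TMM scaling, Sqstm1 and Calcoco1, both of which turn sign when scaled by totals.

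**Figure D3:**
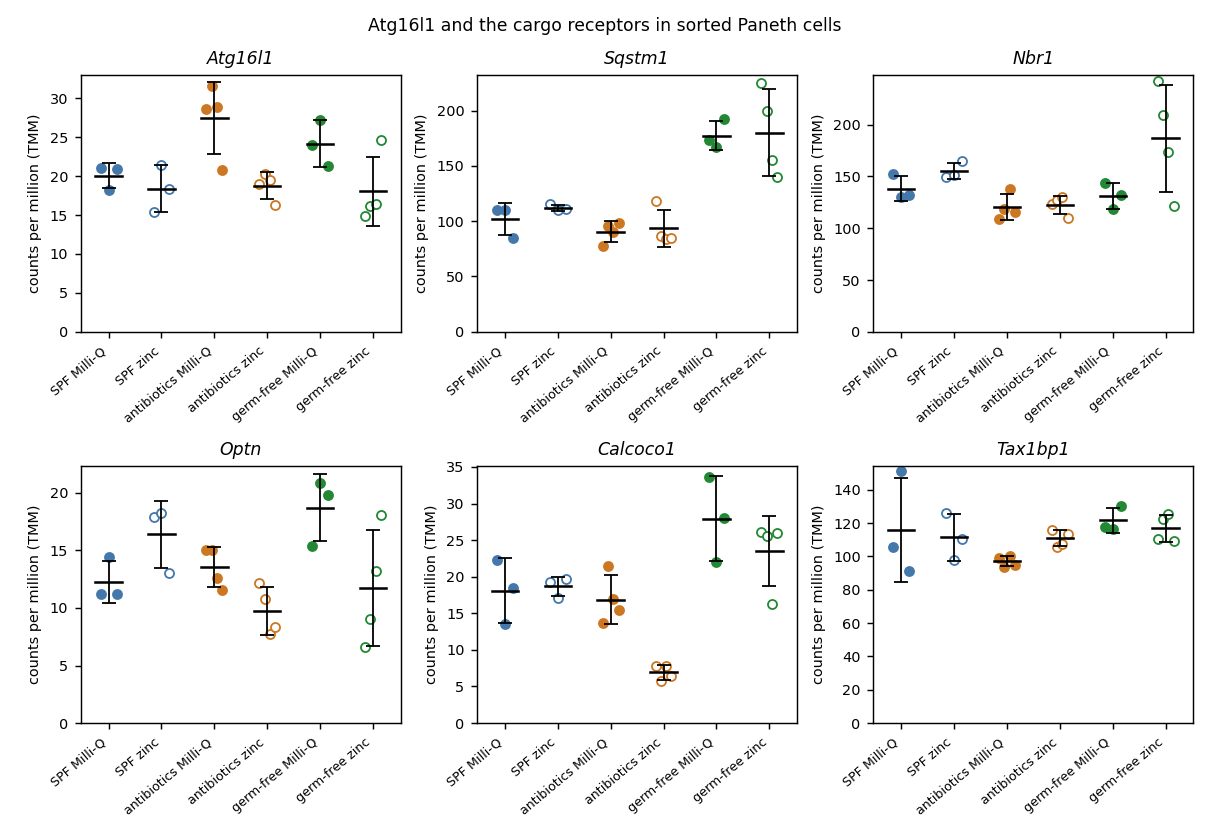
TMM-scaled CPM (y axes, from 0) of Atg16l1 and the 5 cargo receptors in the 6 groups (x axes). Points are libraries, filled for Milli-Q and open for zinc, horizontal lines are group means and bars the SD (n = 3 or 4). The 4 antibiotics zinc libraries of Calcoco1 lie between 5.76 and 7.82, under all other libraries, and the germ-free libraries of Sqstm1 lie above all SPF libraries under this scaling. Scaled by totals the Sqstm1 libraries overlap on both waters, and the Milli-Q difference is -0.16 (adjusted p = 0.392).

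Among the 5 genes of the ULK complex, Ulk1 (GRCm39 chr5:110931496-110957995, - strand), the kinase that starts autophagosome formation, moved with zinc after antibiotics. Ulk1 gave 36.2, 41.1, 49.6 and 43.9 CPM on Milli-Q and 16.2, 27.8, 27.6 and 19.3 on zinc, so that all zinc libraries were below all Milli-Q libraries. It fell 1.88-fold (log2 fold change -0.91, SE 0.15, adjusted p = 0.0013), a call kept without any 1 of the 8 libraries, and with the GC and length correction it was -0.59 (adjusted p = 0.00755). On zinc it was also lower than in SPF mice, where the values were 36.2, 40.2 and 44.4 (log2 fold change -0.82, SE 0.17, adjusted p = 0.00532). That call was kept without any 1 of the 7 libraries and lost by totals (-0.69, adjusted p = 0.0619). In SPF and germ-free mice the zinc effect on Ulk1 was 0.01 and -0.22, neither called, and the difference between antibiotics and SPF mice in zinc effect, -0.92 (SE 0.23, adjusted p = 0.107), did not pass the test.

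Atg101, which stabilises the complex, was the only ULK gene called between germ-free and SPF mice on Milli-Q. It gave 10.7, 11.4 and 12.3 CPM in SPF and 19.9, 27.1 and 20.4 in germ-free mice (log2 fold change 0.97, SE 0.17, adjusted p = 0.000289), without overlap, and 0.001 when scaled by totals. With zinc in germ-free mice it gave 12.8, 14.7, 15.1 and 15.8 and was called lower (log2 fold change -0.61, SE 0.16, adjusted p = 0.0191). Leaving out germ-free Milli-Q replicate 2 ended that call (adjusted p = 0.165), as did leaving out replicate 1 or 3 of germ-free zinc, or correcting for GC content and length.

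The scaffold Atg13 was lower in antibiotics than in SPF mice on zinc, with 36.9, 36.2, 34.2 and 34.4 against 50.7, 42.6 and 47.9 CPM (log2 fold change -0.41, SE 0.12, adjusted p = 0.0319). The call was lost in 6 of 7 fits without 1 library, with adjusted p up to 0.118, by totals (-0.28, adjusted p = 0.304) and with the replicate block (adjusted p = 0.0571). Atg13 (12318 counts over all libraries) overlaps Arhgap1 (16625) on the opposite strand. Of the remaining ULK genes, Rb1cc1 (the scaffold FIP200) and Ulk2 were called in no contrast. Ulk2 group means ran from 5.95 ± 0.76 CPM in antibiotics mice on Milli-Q to 8.26 ± 2.22 in germ-free mice on zinc, and those of Rb1cc1 from 18.8 ± 1.73 in antibiotics mice on zinc to 22.9 ± 1.76 in SPF mice on zinc.

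Of the 6 genes of the PI3-kinase complex, Becn1, Pik3c3 (the catalytic subunit), Pik3r4, Atg14, Uvrag and Ambra1, 1 was called in any of the 8 comparisons outside the tests of difference, as were 50.6% of all genes tested. Atg14, the subunit that targets the complex to sites of autophagosome formation, gave 9.81, 9.38, 9.41 and 8.12 CPM in antibiotics mice on Milli-Q and 6.69, 5.61, 5.05 and 6.53 on zinc and fell (log2 fold change -0.62, SE 0.20, adjusted p = 0.0295). Its call was lost in 5 of 8 fits without 1 library, with adjusted p up to 0.0774, and with the GC and length correction (-0.52, adjusted p = 0.0566). In germ-free against SPF mice on Milli-Q the 6 log2 fold changes ran from -0.30 (Uvrag) to 0.09 (Becn1), with a median of -0.07. Becn1, the most abundant of them, had group means of 64.2 ± 2.35 (SPF, Milli-Q), 63.3 ± 3.96 (SPF, zinc), 65.7 ± 4.95 and 61.7 ± 5.47 (antibiotics), and 68.5 ± 3.27 and 55.3 ± 8.55 (germ-free).

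Of the PI3P readers Wipi1 and Wipi2, the lipid transfer proteins Atg2a and Atg2b, and the scramblase Atg9a, Atg2a was called for zinc after antibiotics. It gave 27.2, 32.7, 35.96 and 30.6 CPM on Milli-Q and 19.1, 22.5, 22.98 and 17.2 on zinc, without overlap (log2 fold change -0.63, SE 0.12, adjusted p = 0.00208). The call held without any 1 library but not with the GC and length correction, where the value was -0.24 (adjusted p = 0.108). Wipi1 was lower in antibiotics than in SPF mice on zinc (17.5, 17.6, 15.5 and 16.4 against 21.1, 23.2 and 23.1 CPM, log2 fold change -0.42, SE 0.13, adjusted p = 0.0411), a call lost without any 1 of the 7 libraries, with adjusted p from 0.0532 to 0.156, and by totals (-0.30, adjusted p = 0.313). Wipi2 and Atg2b were called nowhere.

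Atg9a, the transmembrane protein of the core machinery, moved in opposite directions in a pair of contrasts that share the germ-free Milli-Q libraries. It gave 11.4, 17.97 and 13.7 CPM in SPF and 7.77, 5.48 and 12.2 in germ-free mice on Milli-Q (log2 fold change -0.74, SE 0.24, adjusted p = 0.031), with overlapping libraries, and 15.3, 17.3, 13.2 and 12.5 in germ-free mice on zinc (log2 fold change 0.76, SE 0.24, adjusted p = 0.0428). The first call was lost without germ-free Milli-Q replicate 1 (adjusted p = 0.0835), germ-free Milli-Q replicate 2 (0.18) or SPF Milli-Q replicate 2 (0.126), and the second in 5 of 7 fits that left out 1 library, with adjusted p up to 0.257. The locus is also hard to count: 65.2% of its 60-base transcript stretches were unique, and Ankzf1 overlaps it on the opposite strand.

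Atg7 (GRCm39 chr6:114620044-114837576, + strand) encodes the E1-like enzyme that activates both Atg8 and Atg12. It gave 33.5, 27.6 and 31.3 CPM in SPF mice and 63.4, 65.9 and 61.3 in germ-free mice on Milli-Q. The germ-free libraries are tightly grouped and lie clear of the SPF libraries. The difference was 2.06-fold with TMM scaling (log2 fold change 1.04, SE 0.14, adjusted p = 2.22e-05), 0.09 on the log2 scale by totals, and was called without any 1 of the 6 libraries. On zinc, SPF mice gave 33.8, 31.8 and 30.2 and germ-free mice 52.3, 43.3, 43.5 and 38.7 (log2 fold change 0.47, SE 0.13, adjusted p = 0.0337; -0.16 by totals), a call lost in 5 of 7 fits without 1 library, with adjusted p up to 0.154. Zinc lowered Atg7 in germ-free mice (log2 fold change -0.52, SE 0.13, adjusted p = 0.0165), and all 4 zinc libraries lay below the Milli-Q libraries. The call ended without germ-free Milli-Q replicate 2 (adjusted p = 0.104), without germ-free zinc replicate 3 (0.0554), by totals (-0.40, 0.0982), with the germ-free groups fitted alone (0.133) and with the GC and length correction (0.119). In antibiotics mice Atg7 kept to 25.6 to 32.7 CPM on Milli-Q and 26.8 to 36.4 on zinc.

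Promoters of the genes were searched for the CLEAR element TCACGTG, the motif bound by Tfeb and Tfe3, which are themselves among the 39 genes. RefSeq promoters (250 bases before to 50 after the start, from a table on GRCm38.p6) were at hand for 33 of the 39 genes. On either strand, 3 of the 33 genes held the motif (Atg3, Atg7 and Atg14). Counted by promoter it was 3 of 40 (7.5%), against 3.77% of 32851 mouse promoters. Of the 12 genes higher in germ-free mice on Milli-Q, 11 had a promoter in the table and 1, Atg7, held the motif. Atg3, the E2-like enzyme of Atg8 conjugation, was called in no contrast. The starts were placed on GRCm39 by exact match of the promoter sequence, and 30 of the 33 genes had one within 500 bases of the start of GENCODE's canonical transcript. That was not so for Atg7: the stretch with its match lies in an intron, 27.85 kb past the canonical start, and upstream of a RefSeq start inside the gene. In Atg3 the stretch lies in the untranslated part of an exon of the canonical transcript. The matches are shown for these genes because they act in the same reaction and carry the same letters in places of different kind, while Atg7 was called in 3 contrasts and Atg3 in none. Both stretches are on the plus strand, and capitals mark the motif, which occurs 2 times on this strand in Atg3, with a further match on the other strand that overlaps the second.
Atg7, chr6:114647912-114647941: ccatattggtggTCACGTGtgcagtaagtg
Atg3, chr16:44979097-44979126: TCACGTGtcctgggagagtcgagTCACGTG
The match in Atg7 lies 127 to 133 bases before the RefSeq start, and those shown for Atg3 66 to 95 bases before it. A match of these letters is a description of the sequence and not a binding site.

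Atg5, which is joined to Atg12 and carries Atg16l1, went the other way to Atg16l1 with zinc after antibiotics. It gave 18.1, 16.6, 20.9 and 21.2 CPM on Milli-Q and 37.4, 30.1, 26.1 and 34.1 on zinc, without overlap (log2 fold change 0.73, SE 0.17, adjusted p = 0.00581), a rise kept without any 1 library and at 0.65 (adjusted p = 0.0099) with the GC and length correction. All Milli-Q libraries lay under 2 of the 3 SPF Milli-Q libraries, which gave 28.1, 28.8 and 17.5, and that difference was not called (-0.37). Averaged over contexts Atg5 was called higher with zinc (log2 fold change 0.33, SE 0.11, adjusted p = 0.0321), which 9 of 21 fits without 1 library lost, with adjusted p up to 0.0687, as did scaling by totals (0.24, adjusted p = 0.147). Atg16l2, a paralog of Atg16l1, gave 7.64, 7.84 and 7.71 CPM in germ-free mice on Milli-Q and 0.387, 2.95, 2.12 and 5.95 on zinc. It was called lower there (log2 fold change -1.35, SE 0.38, adjusted p = 0.0271) and averaged over contexts (log2 fold change -0.78, SE 0.20, adjusted p = 0.0106). The germ-free call was lost in 5 of 7 fits without 1 library, with adjusted p up to 0.12, and the averaged one in none of 21. Atg16l2 overlaps Fchsd2 on the opposite strand. Atg10 and Atg12, the E2-like enzyme for Atg12 and its substrate, were called nowhere, with group means from 2.77 ± 0.618 to 4.28 ± 0.438 CPM for Atg10 and from 20.4 ± 3.49 to 28.4 ± 6.33 for Atg12. Atg10, with 1027 counts over all libraries, overlaps Rps23 (111401 counts) on the opposite strand. Its level is uncertain, because it is not known whether strand was used in counting.

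The 4 Atg4 proteases trim Atg8 proteins before conjugation and release them afterwards. With TMM scaling Atg4b and Atg4d were higher in the germ-free than the SPF Milli-Q group, at 29.4, 35.7 and 30.3 against 26.4, 25.9 and 21.1 CPM for Atg4b (log2 fold change 0.38, SE 0.13, adjusted p = 0.0393; -0.59 by totals) and 42.4, 54.2 and 50.9 against 34.8, 31.9 and 29.98 CPM for Atg4d (log2 fold change 0.61, SE 0.13, adjusted p = 0.00173; -0.35 by totals). Atg4b was also higher on zinc (log2 fold change 0.42, SE 0.12, adjusted p = 0.0462; -0.18 by totals). The Atg4b call was lost in 5 of 6 fits without 1 library on Milli-Q and in 6 of 7 on zinc, with adjusted p up to 0.195 and 0.21, and the Atg4d call in none of 6. Atg4a rose with zinc after antibiotics from 3.46, 1.902, 3.601 and 5.11 to 7.31, 5.92, 5.66 and 8.95 CPM (log2 fold change 0.97, SE 0.29, adjusted p = 0.0209). It was no longer called without antibiotics Milli-Q replicate 2 (adjusted p = 0.0782) or antibiotics zinc replicate 4 (adjusted p = 0.0723), nor by totals (0.80, adjusted p = 0.0679), and 67.6% of the gene's 60-base stretches were unique, the rest being shared with the pseudogene Atg4a-ps. Atg4c was called nowhere.

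Of the 5 Atg8 family genes, 4 were called higher in germ-free against SPF mice on Milli-Q with TMM scaling, as were 12.7% of all genes, with a median log2 fold change of 0.97. With libraries scaled by totals, none of these 4 was called. The values were then 0.64 for Map1lc3a (adjusted p = 0.0607), 0.12 for Gabarap (0.536), 0.03 for Gabarapl1 (0.905) and -0.34 for Map1lc3b (0.0782). On zinc, 3 of 5 were called higher (median 0.62), as were 3.47% of all genes. By totals none of these 3 was called, and Map1lc3b again turned sign (-0.12).

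Map1lc3a (GRCm39 chr2:155118217-155119998, + strand), which encodes LC3A, had the largest rise of the 39 genes in the germ-free contrasts. It gave 6.06, 8.07 and 4.88 CPM in SPF and 19.6, 19.98 and 18.5 CPM in germ-free mice on Milli-Q. All germ-free libraries were more than 10 CPM above the highest SPF library. The difference was 3.05-fold (log2 fold change 1.61, SE 0.27, adjusted p = 0.000268), and by totals it was 0.64 (adjusted p = 0.0607). On zinc, SPF mice gave 6.28, 5.55 and 3.498 and germ-free mice 12.01, 12.7, 10.8 and 11.5 (log2 fold change 1.20, SE 0.27, adjusted p = 0.0126), a call that ended without replicate 2 (adjusted p = 0.0665) or 3 (adjusted p = 0.0939) of SPF zinc. In germ-free mice all 4 zinc libraries lay below the 3 Milli-Q libraries, and the zinc difference of -0.72 (SE 0.25, adjusted p = 0.0646) did not pass the test. Averaged over contexts Map1lc3a was called lower with zinc (log2 fold change -0.48, SE 0.15, adjusted p = 0.0256). The call was lost without SPF Milli-Q replicate 2 (adjusted p = 0.0619) or SPF zinc replicate 3 (adjusted p = 0.065). It was also lost with the GC and length correction (-0.20, adjusted p = 0.407).

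Gabarap (GRCm39 chr11:69881888-69886109, + strand), the most abundant of the 39 genes, gave 116, 132 and 105 CPM in SPF and 244, 262 and 244 CPM in germ-free mice on Milli-Q. The groups do not overlap, and the difference was 2.13-fold (log2 fold change 1.09, SE 0.14, adjusted p = 1.65e-05; 0.12 by totals). On zinc the values were 138, 108 and 122 and 211, 175, 172 and 193 (log2 fold change 0.62, SE 0.13, adjusted p = 0.009; 0.001 by totals), and leaving out SPF zinc replicate 2 ended the call (adjusted p = 0.103). Gabarap was called lower with zinc in germ-free mice (log2 fold change -0.41, SE 0.13, adjusted p = 0.0406), a call lost in 6 of 7 fits without 1 library, with adjusted p up to 0.182, by totals (-0.29, adjusted p = 0.331) and with the germ-free groups fitted alone (adjusted p = 0.165). Antibiotics mice gave 121, 137, 98.7 and 110.4 on Milli-Q and 149, 134, 127 and 141 on zinc, a difference of 0.24 that was not called.

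Gabarapl1 gave 54.4, 49.4 and 41.8 CPM in germ-free mice on Milli-Q against 30.7, 24.9 and 18.6 in SPF mice (log2 fold change 0.97, SE 0.22, adjusted p = 0.00312; 0.03 by totals). Map1lc3b (LC3B) gave 114, 95.8 and 108 against 89.9, 59.1 and 60.9 CPM (log2 fold change 0.60, SE 0.16, adjusted p = 0.00802), a call lost without SPF Milli-Q replicate 2 (adjusted p = 0.0629) or 3 (0.0518). For Map1lc3b the highest SPF library came close to the lowest germ-free library without reaching it. With zinc after antibiotics Map1lc3b fell from 52.5, 66.4, 66.4 and 70.3 to 52.1, 43.7, 45.6 and 47.7 CPM (log2 fold change -0.43, SE 0.14, adjusted p = 0.0266). The lowest Milli-Q library lay just above the highest zinc library, and the call was lost in 6 of 8 fits without 1 library, with adjusted p up to 0.0744, and with the GC and length correction (-0.29, adjusted p = 0.154). Gabarapl2 was called in no contrast and had group means from 14.8 ± 2.37 CPM in antibiotics mice on Milli-Q to 20.5 ± 6.61 in germ-free mice on zinc.

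**Figure D4:**
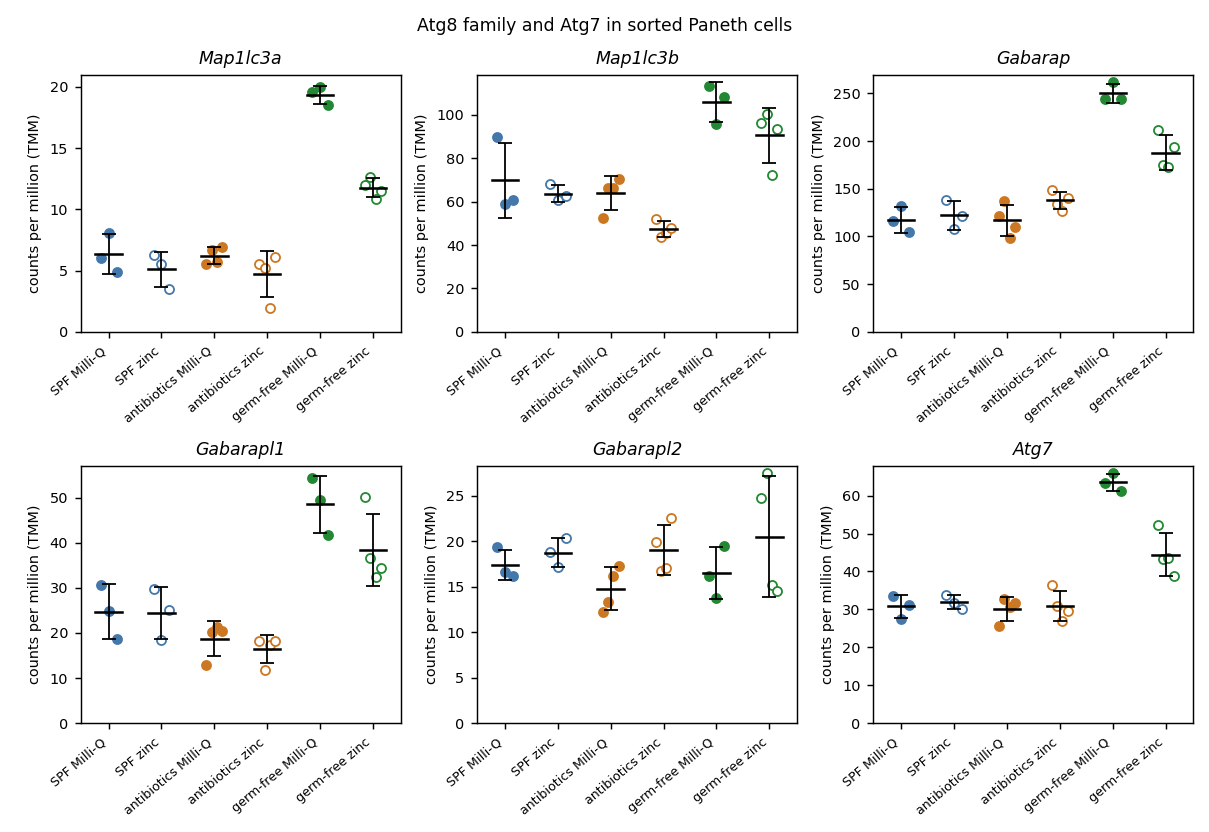
TMM-scaled CPM (y axes, from 0) of the 5 Atg8 family genes and of Atg7 in the 6 groups (x axes). Points are libraries, filled for Milli-Q and open for zinc, lines are group means and bars the SD (n = 3 or 4). In the germ-free Milli-Q group Map1lc3a lies between 18.5 and 19.98 CPM and Atg7 between 61.3 and 65.9 CPM, above all SPF and antibiotics libraries. Scaled by totals, none of the genes shown here that were called in germ-free against SPF on Milli-Q keeps its call, and the sign turns for Map1lc3b.

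Tfeb and Tfe3, transcription factors of autophagy and lysosome genes, were both called higher in the germ-free than the SPF Milli-Q group with TMM scaling. Tfeb gave 11.5, 14.5 and 9.96 CPM against 5.86, 7.15 and 8.12 (log2 fold change 0.76, SE 0.27, adjusted p = 0.041; -0.22 by totals), and Tfe3 gave 18.7, 15.7 and 19.9 against 10.9, 12.9 and 13.9 (log2 fold change 0.53, SE 0.17, adjusted p = 0.0238; -0.44 by totals). Each call was lost in 4 of 6 fits without 1 library, with adjusted p up to 0.182 for Tfeb and 0.12 for Tfe3. On zinc neither was called (0.09 for Tfeb and -0.09 for Tfe3). Tfeb was called lower with zinc in germ-free mice, where the zinc libraries gave 3.68, 6.67, 6.37 and 10.3 CPM and replicate 4 overlapped the Milli-Q range (log2 fold change -0.79, SE 0.26, adjusted p = 0.0482). This call was lost in 6 of 7 fits without 1 library, with adjusted p up to 0.248. For several genes, including Atg16l1, Nbr1, Optn and Tfeb, the library germ-free zinc 4 was thus nearer to the germ-free Milli-Q libraries than the other germ-free zinc libraries were.

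Over all contrasts, 24 of the 39 genes were called at least once (61.5%, against 50.6% of all genes tested) and 15 never. The latter were Becn1, Pik3c3, Pik3r4, Uvrag and Ambra1 of the PI3-kinase group, Rb1cc1 and Ulk2 of the ULK group, Wipi2 and Atg2b, Atg3, Atg10 and Atg12 of conjugation, Atg4c, Gabarapl2, and the receptor Tax1bp1. Their log2 fold changes in the 8 comparisons outside the tests of difference stayed between -0.47 (Atg12, germ-free against SPF on Milli-Q) and 0.62 (Atg10, zinc after antibiotics).

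Other genes of the pathway were read from a second list of 55, of which 53 were tested. With TMM scaling, germ-free against SPF on Milli-Q called 14 higher and 3 lower (26.4 and 5.66%, against 12.7 and 11.6% of all genes). Ccpg1, an endoplasmic reticulum receptor, was higher (log2 fold change 2.18, SE 0.34, adjusted p = 0.00015), and so was Vamp8, a SNARE of autophagosome fusion and of granule exocytosis (log2 fold change 1.04, SE 0.15, adjusted p = 7.05e-05), while Ncoa4, the ferritin receptor, was lower (log2 fold change -1.03, SE 0.25, adjusted p = 0.00516), as was Wdfy3, a scaffold for aggregates (log2 fold change -0.69, SE 0.22, adjusted p = 0.029). Scaled by totals these were 1.22 (adjusted p = 0.00407), 0.08 (0.677, not called), -1.997 (3.74e-06) and -1.65 (1.15e-05). Under that scaling the median of all genes was -0.99 and 70.9% were called lower, so a negative sign there does not set Ncoa4 and Wdfy3 apart. On zinc the contrast called 2 higher (3.77%, against 3.47% of all genes), Irgm1, an interferon-induced GTPase linked to autophagy (log2 fold change 0.65, SE 0.19, adjusted p = 0.0453; 0.04 by totals), and Vps41 of the HOPS tethering complex (log2 fold change 0.45, SE 0.12, adjusted p = 0.0337; -0.18 by totals).

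Zinc after antibiotics called 9 of the 53 higher and 4 lower (17 and 7.55%, against 10.2 and 11.5% of all genes). Tmem41b, a lipid scramblase of early autophagosomes (log2 fold change 0.53, SE 0.17, adjusted p = 0.0274), and Rab11a, of recycling endosomes (log2 fold change 0.50, SE 0.14, adjusted p = 0.0126), rose, while Stk11 (LKB1, the kinase upstream of AMPK; -0.70, SE 0.19, adjusted p = 0.0139) and Tsc2, a brake on mTORC1 (log2 fold change -0.54, SE 0.12, adjusted p = 0.00528), fell. In germ-free mice zinc called 4 higher and 4 lower (7.55% each, against 5.89 and 5.47%), among them the AMPK subunit Prkaa2 (log2 fold change 0.93, SE 0.29, adjusted p = 0.0405) and Ncoa4 (log2 fold change 0.98, SE 0.25, adjusted p = 0.0185) upward and Ccpg1 (log2 fold change -1.18, SE 0.31, adjusted p = 0.0222) and Stk11 (log2 fold change -0.79, SE 0.21, adjusted p = 0.0217) downward. Averaged over contexts there were 6 higher and 6 lower (11.3% each, against 10.7 and 11.2%). The higher ones included Prkaa2 (log2 fold change 0.46, SE 0.16, adjusted p = 0.0412) and Wdfy3 (log2 fold change 0.46, SE 0.12, adjusted p = 0.00992), and the lower ones Stk11 (log2 fold change -0.50, SE 0.12, adjusted p = 0.00679) and the fusion SNARE Stx17 (log2 fold change -0.29, SE 0.11, adjusted p = 0.0485). Antibiotics on zinc called 2 higher (3.77%, against 4.76%), Tmem41b (log2 fold change 0.61, SE 0.19, adjusted p = 0.041) and the mitochondrial receptor Phb2 (log2 fold change 0.51, SE 0.14, adjusted p = 0.0225), and 1 lower (1.89%, against 4.21%), the transcription factor Foxo3 (log2 fold change -0.53, SE 0.15, adjusted p = 0.0307). Zinc in SPF mice, antibiotics on Milli-Q and the 3 tests of difference called none. Scaled by totals, the calls after antibiotics were lost for Tmem41b (adjusted p = 0.222) and Rab11a (0.278), and those in germ-free mice for Ccpg1 (0.0632) and Stk11 (0.192). The averaged calls were lost for Prkaa2 (0.163), Wdfy3 (0.0693) and Stx17 (0.071), and those for antibiotics on zinc for Phb2 (0.0549) and Foxo3 (0.27). The other calls named in this paragraph held. Fits without 1 library are not given for these genes.

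The fold changes of the 39 genes varied with the GC content of their transcripts. For zinc after antibiotics Pearson's r across the 39 genes was -0.57 (Spearman's rho -0.61, against -0.39 over 13045 genes). The 2 genes that rose had a median GC content of 43.0%, the 6 that fell 53.6%, and those not called 48.7%. For zinc in germ-free mice r was -0.41 (rho -0.45, against -0.40), and for zinc in SPF mice -0.03. For germ-free against SPF on Milli-Q it was 0.46 (rho 0.41, against 0.31) and on zinc 0.18. Genes share libraries and are not independent replicates, so these values are descriptions without a test. With a correction for GC content and length, zinc called 5 of the 39 genes after antibiotics, 2 in germ-free mice and 4 on average, against 18, 5.09 and 14.8% of all genes. Germ-free against SPF then called 18 of the 39 on Milli-Q (17 higher, 1 lower) and 9 on zinc, against 20.2 and 9.74% of all genes. What part GC content has in these differences was not tested beyond this correction. The parts of the immune, enterocyte, goblet, enteroendocrine, tuft and stem cell markers and of the mitochondrial share, which differed between groups as given above, were not tested either.

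**Figure D5:**
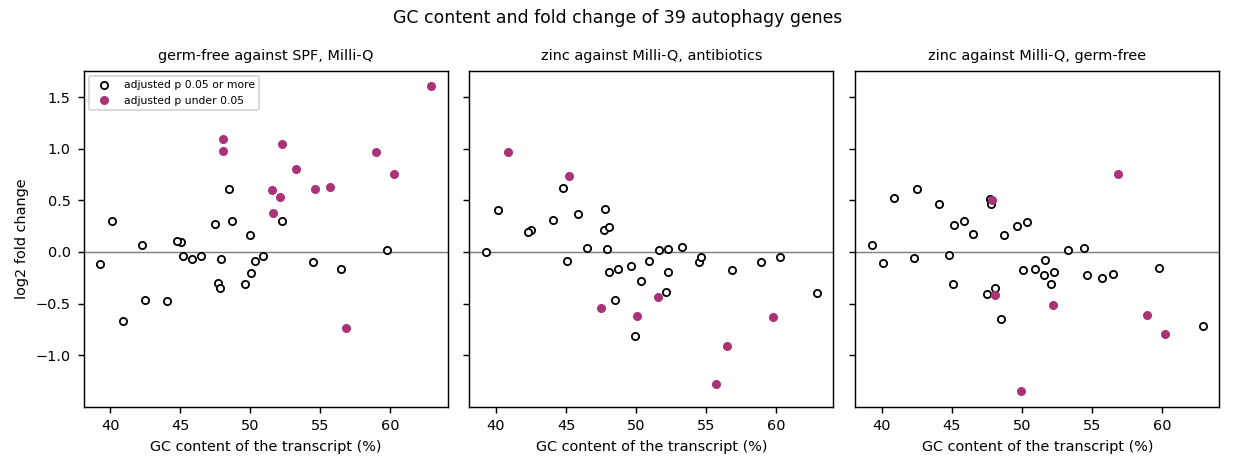
Log2 fold change (y axis) of the 39 autophagy genes against the GC content of their transcripts in percent (x axis) for germ-free against SPF on Milli-Q, zinc after antibiotics and zinc in germ-free mice. Filled points have an adjusted p under 0.05. Pearson's r is 0.46, -0.57 and -0.41 from left to right, so genes rich in GC tend to lie higher in the left panel and lower in the others.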

How the data were processed

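PC RNA libraries of 21 mice in 6 groups were analysed. The authors deposited 1 table of raw read counts per Ensembl gene, not normalised; the submitters' processing notes name FastQC 0.12.0, STAR 2.7.0a, DESeq2 and the mm39 build. The counter and its treatment of strand and of multiple matches are not given in the sources used here, so reads of overlapping genes may have been shared. Each column was matched to a sample by name, and of 55414 identifiers 54749 matched GENCODE M39 (GRCm39).

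Counts were fitted with edgeR 4.0.16 (limma 3.58.1, R 4.3.3): filterByExpr, TMM factors, and the quasi-likelihood F-test with 1 coefficient per group (common dispersion 0.0369, prior degrees of freedom 8.52), adjusted by Benjamini-Hochberg over 13070 genes. TPM over protein-coding genes used the longest annotated transcript of each. The replicate numbers do not name shared litters or days and were not used as a block. Replicates are called biological in the series' text; the 27 pairs of libraries within groups differed beyond sampling noise (lowest chi-square per gene 7.97). Library totals set the precision for low genes.

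Values are given for Atg16l1 and the 5 receptors in the 8 comparisons that are no test of difference (for Tax1bp1 as a range) and, in each of these, for up to 3 called genes per direction with a mean of at least 5 CPM; for other pathway genes, up to 2 per direction. The remaining genes that are named were chosen after their values were seen. The members and lists were chosen with earlier results of these data known. Alternatives were DESeq2 1.42.0, other scalings and filters, the replicate block, fits of the compared groups alone and leaving out each library. The GC and length correction, and leaving out SPF zinc 1 with germ-free zinc 4, were chosen after seeing the data. The fit was tested on simulated data. Figures used matplotlib 3.10.9 (Python 3.11.15).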

Additional observations from a re-analysis of the deposited data

Results flagged for a closer look

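In groups of 4 libraries, a value was flagged when its gap to the nearest other library, divided by the range of the group, exceeded Dixon's 95% critical value. Chance flags about 1 in 20 groups, and of 51 groups checked, 4 had such a value. Sqstm1 was at 118.6 CPM in antibiotics zinc replicate 1, and the other 3 libraries lay between 84.2 and 86.6 CPM. Calcoco1 was at 16.3 CPM in germ-free zinc replicate 3, against 25.6 to 26.1 CPM in the others. Map1lc3a was at 1.95 CPM in antibiotics zinc replicate 3, against 5.20 to 6.07 CPM. Atg16l2 was at 7.20 CPM in antibiotics Milli-Q replicate 4, against 8.76 to 8.99 CPM.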

How the results depend on the processing

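The next counts cover only Atg16l1, the 5 receptors and the genes picked by the naming rule above, in the comparisons they were picked for. Of the called values, 432 recomputed under the alternatives kept their direction and their call, 95 lost the call and 2 changed sign. Of those not called, 610 stayed, 21 gained a call and 47 changed sign. Over all called genes, totals alone turned the sign of 7 of the 12 higher in germ-free mice on Milli-Q and of 3 of the 6 on zinc. The count of called autophagy genes moved by over 1.5 times as follows. Scaled by totals it was 1 for zinc in germ-free mice (5.62% of all genes) and 1 for antibiotics against SPF on zinc (4.64%). It was 26 and 21, all lower, for germ-free against SPF on Milli-Q and zinc (70.9 and 48% of all genes lower). With the compared groups fitted alone it was 0 for zinc in germ-free mice (0.0262% of all genes), 11 for antibiotics on zinc (16.4%) and 0 for germ-free on zinc (0.118%). It was 1 for the difference in zinc effect between antibiotics and SPF (1.91%). DESeq2 gave 9 for antibiotics on zinc (12.4% of all genes), and 3 each for the antibiotics-minus-SPF (1.99%) and germ-free-minus-antibiotics (2.48%) differences in zinc effect. Without a filter on low counts it was 1 for antibiotics on Milli-Q (1.65% of all genes). It was 3, 1 and 2 for the differences in zinc effect between antibiotics and SPF, germ-free and SPF, and germ-free and antibiotics (2.75, 1.75 and 1.32%). Correction for GC content and length, chosen after seeing the data, gave 5 for zinc after antibiotics (18% of all genes) and 2 for zinc in germ-free mice (5.09%). It gave 4 for the average (14.8%) and 3 for antibiotics on zinc (10.4%). Leaving out SPF zinc 1 and germ-free zinc 4 together, also chosen after seeing the data, gave 13 for zinc in germ-free mice (24.8% of all genes). It gave 15 for the average (27.8%), 3 for antibiotics on zinc (8.08%) and 1 for the difference in zinc effect between germ-free and SPF (3.07%). Leaving out 1 library at a time gave 4 to 8 for zinc after antibiotics, 0 to 13 for zinc in germ-free mice, 6 to 18 for the average, 0 to 1 for antibiotics on Milli-Q, 7 to 12 for germ-free on Milli-Q (7 without SPF Milli-Q 2), 2 to 5 for antibiotics on zinc, 0 to 9 for germ-free on zinc (0 without SPF zinc 2, 1 without SPF zinc 3, 2 without germ-free zinc 1 and 3 without germ-free zinc 2), 0 to 2 for the germ-free-minus-SPF difference and 0 to 1 for the germ-free-minus-antibiotics difference. For the left-out libraries that moved a count by over 1.5 times, the calls over all genes are given with the comparisons above. The cause was not tested beyond what each alternative leaves out.

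Of 48 same-numbered pairs of libraries, 7 had a correlation of deviations over 0.1 (range -0.386 to 0.229, median 0.017). Some germ-free Milli-Q libraries carry another number in the deposited columns than in their titles, and the title numbers were used. Pairs with these libraries may be mismatched, in this check and in the replicate block. The check therefore cannot settle whether the numbers pair mice. With the replicate block the count for antibiotics on zinc was 2 (7.15% of all genes), and Tax1bp1 there was 0.002. The other counts stayed within 1.5 times.

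Among the genes picked by the naming rule, signs changed for fold changes near 0 and, under scaling by totals, for germ-free contrasts. By totals, zinc in SPF gave -0.14 (Calcoco1), -0.029 (Nbr1) and -0.066 (Sqstm1), zinc after antibiotics -0.12 (Nbr1) and -0.11 (Sqstm1), zinc in germ-free mice 0.081 (Tax1bp1), and the average -0.022 (Sqstm1) and -0.061 (Tax1bp1). By totals, germ-free against SPF gave -0.69 (Atg16l1), -0.31 (Calcoco1), -0.37 (Optn), -0.16 (Sqstm1) and -0.91 (Tax1bp1) on Milli-Q, and -0.29 (Calcoco1), -0.40 (Nbr1) and -0.53 (Tax1bp1) on zinc, and antibiotics on zinc gave 0.13 (Tax1bp1). With the GC and length correction, Calcoco1 was 0.067 for zinc in germ-free mice, Tax1bp1 -0.095 for the average, Nbr1 0.064 for germ-free on Milli-Q and Atg16l1 0.14 for germ-free on zinc. Tax1bp1 in antibiotics on zinc was 0.011 without the filter, and without SPF zinc 1 and germ-free zinc 4 it was 0.09 and Atg16l1 -0.08. Leaving out 1 library at a time, values that changed sign ranged from -0.12 to 0.22 (Calcoco1, zinc in SPF), -0.19 to 0.18 (Tax1bp1, zinc in SPF), -0.017 to 0.11 (Nbr1, zinc after antibiotics), -0.086 to 0.10 (Sqstm1, zinc after antibiotics), -0.10 to 0.12 (Sqstm1, zinc in germ-free mice), -0.014 to 0.11 (Tax1bp1, average), -0.28 to 0.068 (Calcoco1, antibiotics on Milli-Q), -0.10 to 0.27 (Tax1bp1, germ-free on Milli-Q), -0.08 to 0.15 (Atg16l1, antibiotics on zinc), -0.091 to 0.09 (Tax1bp1, antibiotics on zinc), -0.21 to 0.083 (Atg16l1, germ-free on zinc) and -0.035 to 0.17 (Tax1bp1, germ-free on zinc).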
